A study of Drosophila melanogaster with 2 samples.

Results

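Of 6153 reproducible Cnc-eGFP peaks on dm6, 1471 (23.9%, exact 95% interval 22.8 to 24.99) had their summit inside the body of a protein-coding gene, in no annotated exon and more than 1000 bp from every annotated transcription start site (TSS). These intronic summits were chosen by position alone, from the summit position in the deposited list and the Ensembl gene models, with transposable elements left out of the gene models. Cnc was mapped by chromatin immunoprecipitation and sequencing in larvae of the last instar taken whole at the wandering stage, male and female animals pooled and of unknown age. The larvae came from a transgenic line that stably carries Cnc with a C-terminal eGFP tag, and the antibody was directed against GFP. The 2 biological replicates form 1 group, no untagged or control sample was analysed here, and every value below is therefore a description within this group. A peak in whole larvae mixes all tissues, so few cells with strong binding and many cells with weak binding cannot be told apart.

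Cnc (cap'n'collar) is the fly member of the Nrf family of basic leucine zipper (bZIP) factors. It binds DNA together with a small Maf protein, and Keap1 holds its long isoform in check until oxidative or xenobiotic stress frees it. In Drosophila, many enhancers lie in introns, often in the first introns of long developmental genes, where they act on a promoter from a distance. The wandering stage precedes pupariation, which pulses of the steroid hormone ecdysone bring about.

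The sequence under the highest intronic summits is shown first, as 101-bp windows centred on the summit on the plus strand of dm6, because these peaks lead the list. No letter is capitalised in these 4, since none of their windows holds the Cnc-Maf motif (TGACNNNGC, either strand).
CG11050, chr2L:6612649-6612749: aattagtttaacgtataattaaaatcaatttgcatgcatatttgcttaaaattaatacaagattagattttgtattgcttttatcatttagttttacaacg
ush, chr2L:481056-481156: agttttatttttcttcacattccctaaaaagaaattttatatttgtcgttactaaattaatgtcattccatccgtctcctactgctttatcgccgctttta
norpA, chrX:4324951-4325051: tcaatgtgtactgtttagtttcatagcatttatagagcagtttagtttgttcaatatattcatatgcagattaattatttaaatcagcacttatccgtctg
CG32486, chr3L:3060722-3060822: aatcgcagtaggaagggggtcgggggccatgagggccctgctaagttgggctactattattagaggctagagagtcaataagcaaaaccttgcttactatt
The first 3 windows are poor in G and C, at 20.8% in CG11050, 30.7% in ush and 28.7% in norpA, while that in CG32486 has 48.5%.

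The motif of the factor itself was in 2.86% of intronic windows, close to the 3.06% of windows 1000 bp to either side. The windows of Pits and Evi5 are shown because, of the members with a Cnc-Maf match that can be printed, they had the highest signal values. Capitals mark the match, which lies on the minus strand in Pits.
Pits, chrX:12579636-12579736: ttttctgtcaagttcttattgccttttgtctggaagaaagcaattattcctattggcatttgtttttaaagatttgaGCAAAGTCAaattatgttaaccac
Evi5, chrX:11447120-11447220: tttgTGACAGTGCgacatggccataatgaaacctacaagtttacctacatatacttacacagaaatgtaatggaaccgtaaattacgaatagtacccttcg
Both matches lie off the summit, towards the end of the window in Pits and at its start in Evi5.

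The next windows are shown for the motif that was most concentrated at the summits among those searched, GTAAACA, the core bound by forkhead (Fox) factors. Capitals mark the match on either strand in the 3 highest intronic summits that hold it.
smash, chr3R:4665112-4665212: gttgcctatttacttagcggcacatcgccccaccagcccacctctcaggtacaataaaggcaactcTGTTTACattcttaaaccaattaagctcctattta
CG13917, chr3L:1591836-1591936: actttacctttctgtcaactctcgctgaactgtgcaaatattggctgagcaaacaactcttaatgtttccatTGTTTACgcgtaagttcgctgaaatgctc
Trl, chr3L:14759424-14759524: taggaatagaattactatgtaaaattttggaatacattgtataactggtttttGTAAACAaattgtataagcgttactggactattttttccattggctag
All 3 matches lie to the right of the summit, which is the middle base of each window.

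Among the words of 7 bases found in at least 30 intronic windows, CAGTGTA had the highest ratio of summit windows to flanking windows. Its highest carriers, Tlk and lili, are shown with the word in capitals, which in both lies on the minus strand as TACACTG.
Tlk, chrX:3742198-3742298: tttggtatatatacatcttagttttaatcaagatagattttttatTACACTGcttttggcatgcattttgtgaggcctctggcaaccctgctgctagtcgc
lili, chr3R:24810985-24811085: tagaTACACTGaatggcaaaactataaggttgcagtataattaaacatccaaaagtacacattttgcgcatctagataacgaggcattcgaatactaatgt
The window of Eip75B below holds a second such word, CACAGTG, on the minus strand, and is shown because this ecdysone-induced gene recurs in the results.
Eip75B, chr3L:18009104-18009204: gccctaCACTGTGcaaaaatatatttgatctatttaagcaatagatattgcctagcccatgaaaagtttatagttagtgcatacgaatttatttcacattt

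Intronic summits reached high signal values, with a median below that of promoter summits. The signal value is the authors' measure of enrichment of a peak over a control, on a scale no label or header states, and the values of the replicate lists and of the list pooled from both replicates are not on one scale. In the pooled calls the median was 325 for intronic summits (interquartile range 250 to 498), against 370 for the 4053 promoter summits (264 to 606) and 337 for the 505 intergenic ones (253 to 487). In the replicates' own lists the medians at these peaks were 177 in replicate 1 and 159 in replicate 2 for intronic summits, against 209 and 186 for promoter summits. The order of the intronic and promoter medians was therefore the same in both replicates, with overlapping interquartile ranges in the pooled calls.

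The share of intronic summits grew down the list. They made up 17.4% (15.3 to 19.6) of the 1231 highest reproducible peaks and 27.5% (25.1 to 30.1) of the 1231 lowest. In the longer replicate lists they made up 22.9% of the 5993 highest and 37.6% of the 5993 lowest nuclear peaks of replicate 1, and 23.9% of the 6000 highest and 38.6% of the 6000 lowest of replicate 2. Eligible intron, the sequence where such a summit could lie, was 47.3 Mb and held 31.1 summits per Mb. The zone within 1000 bp of a TSS held 128 per Mb and eligible intergenic sequence 15.0 per Mb.

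The replicates overlapped at most intronic summits. When each replicate was taken to its highest 6153 peaks, 1009 of the 1471 (68.6%, 66.2 to 71.0) overlapped a peak of both, against 74.9% of promoter summits (73.6 to 76.3) and 69.9% of intergenic ones (65.7 to 73.9). A further 190 overlapped replicate 1 alone, 204 replicate 2 alone and 68 neither. In the whole lists of 30000 peaks, 1443 overlapped both, and the reproducible list was itself derived from these lists. Across those 1443 peaks the 2 signal values had a Spearman correlation of 0.694, against 0.771 for promoter summits, given as a description because the points share both libraries.

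**Figure D1:**
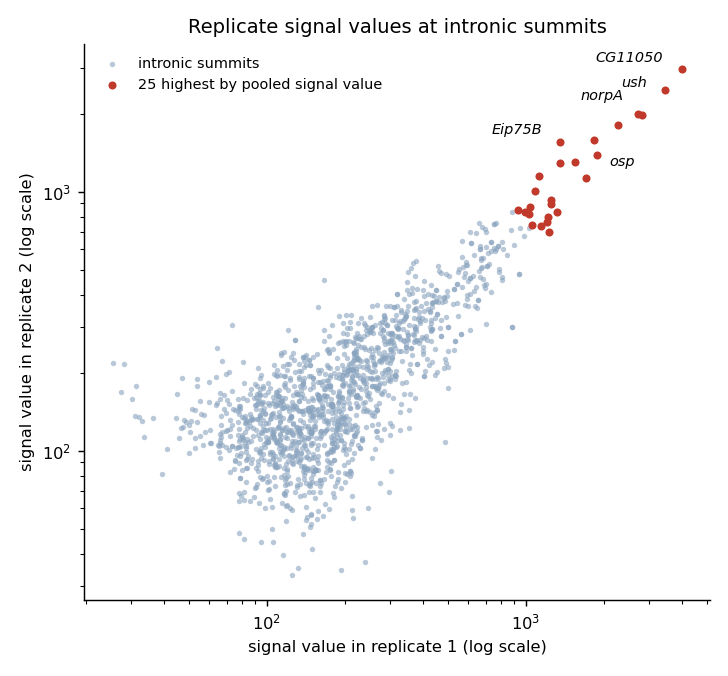
Signal values of the 1443 intronic summits found in both replicate lists, replicate 1 across and replicate 2 up, on log axes. Each point is a peak, red marks the 25 with the highest pooled value, and these lie together at the upper right, with CG11050 highest in both replicates.

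The highest intronic summit lay in CG11050 on 2L (6612490 to 6612903), with a pooled signal value of 6786 and values of 4016 in replicate 1 and 2968 in replicate 2. It lay in intron 2, 140 bp long, and only 12 bp beyond the 1000 bp limit. The next lay in the first intron of ush, which encodes a zinc finger cofactor of GATA factors, with 5945 pooled, 3451 in replicate 1 and 2459 in replicate 2. Its nearest TSS was that of cbt, 1418 bp away, while the nearest of ush was 4886 bp away. The third lay in norpA, the phospholipase C of fly phototransduction (4810 pooled, 2822 in replicate 1, 1982 in replicate 2), and the fourth in CG32486 (4713, 2711 and 2001 in the same order). The nearest TSS to the fourth was that of CG16753. These 4 ranked among the 10 highest peaks of each replicate list.

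Of the 25 highest intronic summits, all were in both replicates' highest 6153 peaks, at rank 206 or better in replicate 1 and 221 or better in replicate 2. They spanned pooled values of 1764 to 6786 and distances of 1012 to 12100 bp from a TSS. The first intron of a transcript held 21 of them, and for 20 the nearest TSS was that of the host gene. Replicate 1 gave the higher value at 23, but the 2 replicate lists are not on one scale. At all reproducible peaks the medians were 196 in replicate 1 and 174 in replicate 2. Named after their values were seen, Eip75B (1363 in replicate 1, 1559 in replicate 2) and Trl (1124 and 1151) had the higher value in replicate 2. Trl encodes the GAGA factor, and other hosts in this set include Irk1 (a potassium channel gene, sharing its peak with CG46310, 3456 pooled), Tlk (Tousled-like kinase, 2698), upSET (a SET domain chromatin protein, 2123), mnb (the minibrain kinase, 1978), MCU (the mitochondrial calcium uniporter, 1904) and Raf (the kinase upstream of MEK, 1770). The rest of the set were CG32772, osp, smash, CG13917, CG12769, CG3726, dnr1, tara, babos, Eip78C, CG34417, CG9837 and CG8034, between 1764 and 3917. None of the 25 windows held the Cnc-Maf motif, which was in 2.86% of all 1471 intronic windows. With a share this low, the lack of a match in 25 windows does not set the highest summits apart from the rest.

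The limit of 1000 bp cuts through a continuum. The members closest to it were in chinmo at 1001 bp (signal value 636), Chd64 at 1001 bp (216) and Ncoa6 at 1005 bp (247). Just outside were Tob (725), SNF4Agamma (321) and CG42258 (312), all at 1000 bp. The values on either side of the limit overlapped.

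Summits thinned out with distance from a TSS. They numbered 443 between 1001 and 2000 bp, or 64.5 per Mb of eligible intron in that range. The density was 39.2 per Mb between 2001 and 5000 bp, 27.7 between 5001 and 10000 bp, 20.5 between 10001 and 20000 bp and 6.31 beyond 20000 bp, where 53 remained. Height did not follow distance in the same way, with median signal values of 329, 341, 297, 316 and 340 in these bins. The median distance was 3344 bp and the longest 50465 bp. The nearest TSS was that of the host gene for 1065 (72.4%), and 1005 (68.3%) lay downstream of the nearest TSS.

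First introns held 993 of the 1471 (67.5%, 65.0 to 69.9), while first introns made up 40.4% of eligible intron sequence. An intron counted as first if it was the first of any transcript of the host gene. Because first introns start at a TSS, the share was also taken by distance. It was 79.2% against 61.0% of the sequence at 1001 to 2000 bp, 71.2% against 50.7% at 2001 to 5000 bp, 60.3% against 42.01% at 5001 to 10000 bp and 45.5% against 23.1% beyond 10000 bp. In each of the 4 bins the exact 95% interval of the summits lay above the share of the sequence.

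**Figure D2:**
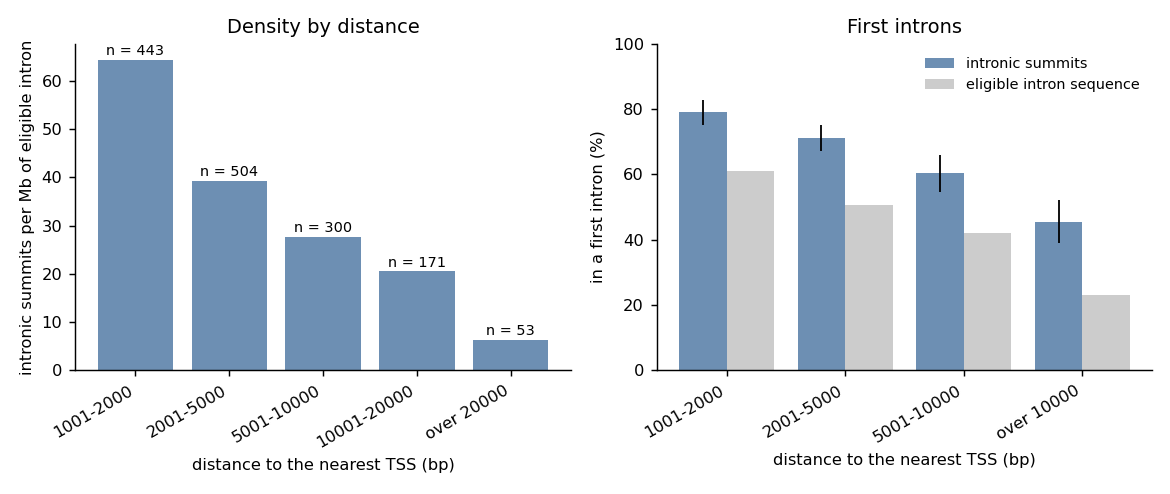
Left, intronic summits per Mb of eligible intron by distance to the nearest TSS, falling from 64.5 to 6.31. Right, percentage in a first intron for summits (blue, with exact 95% intervals) and for eligible sequence (grey), where the blue bar is higher in all 4 bins.

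The arms were alike and chromosome 4 was nearly empty. Density ran from 27.7 per Mb of eligible intron on 3R to 34.9 on 2L, with 31.1 on 3L, 31.8 on 2R and 33.6 on X. Chromosome 4, small and rich in heterochromatin, had 1 intronic summit in 0.508 Mb (1.97 per Mb). On X, 294 of 970 summits (30.3%) were intronic, against 22.3% to 23.2% on the large autosomal arms. Annotated transposable elements held 3 intronic summits (0.204%) but 7.33% of eligible intron. The labels and headers do not say how reads from repeats were handled, and its part in this value was not tested.

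Summits often came in groups. Of 1465 gaps between neighbouring intronic summits on a chromosome, 475 (32.4%) were at most 5000 bp and 190 at most 1000 bp, with a median of 17295 bp. Some overlapping peaks carry more than 1 summit, and their replicate values are then shared.

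The 1471 summits lay in 745 genes, 10.9% of the 6852 protein-coding genes with any eligible intron. Replicate 1 alone, taken to its highest 6153 peaks, gave 1417 summits in 735 genes, and replicate 2 alone gave 1481 in 763. Of the 745 host genes, 604 (81.1%) were hosts in both replicates as well. A single summit was found in 398 hosts, and 3 or more in 179 (2.61% of eligible genes), which together held 781 summits. In 66 cases a summit lay in more than 1 host.

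Long introns offered more room. Hosts had a median of 12266 bp of eligible intron and the other genes 454 bp. The share of genes hosting a summit was 0.808% with up to 1000 bp of eligible intron, 12% (162 of 1350 genes) up to 5000 bp, 23.4% up to 10000 bp, 33.4% up to 20000 bp, 37.5% up to 50000 bp and 49.7% beyond. For genes with over 10000 bp as a whole it was 37.9% (424 of 1119). Density went a different way. It was 32.4 per Mb in genes with up to 1000 bp, highest at 63.3 per Mb with 1001 to 5000 bp, and fell to 16.3 per Mb with more than 50000 bp. A reproducible peak at the host's own promoter was present in 459 of 745 hosts (61.6%), against 2206 of 6107 other eligible genes (36.1%).

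The gene sbb (scribbler, a transcriptional corepressor) had 16, with 16 in replicate 1 alone and 15 in replicate 2 alone, all in a first intron, and pooled signal values of 206 to 1330. Eip74EF, which encodes an Ets factor induced by ecdysone, had 15 (12 in replicate 1, 12 in replicate 2). The kirre gene, which encodes an immunoglobulin-type adhesion protein of myoblast fusion, had 13 (14 and 13), none in a first intron, in 316517 bp of eligible intron.

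Next came Eip75B (12 in replicate 1, 13 in replicate 2) and CG1677 (10 and 10) with 11 each. Tlk, Raf, EcR, Snoo (a Ski-family corepressor), Mnt (the antagonist of Myc) and cnc had 10 each. Replicate 1 and replicate 2 gave 10 and 8 in Tlk, 9 and 9 in Raf, 13 and 13 in EcR, 9 and 11 in Snoo, 5 and 7 in Mnt, 9 and 9 in cnc. Mnt thus had fewer in either replicate than in the reproducible list. Densities of these hosts ranged from 41.1 per Mb in kirre to 522 per Mb in cnc, against 31.1 per Mb over all eligible intron.

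The ecdysone response factors were hosts at the highest share of the lists reported. Of 16 list members with eligible intron, 13 (81.3%) were hosts, against 10.9% of all eligible genes, and 12 of 13 with over 10000 bp, against 37.9%. The count was 13 in either replicate alone. They held 68 summits (69 in replicate 1, 72 in replicate 2), or 120 per Mb against 31.1 over all eligible intron. The median signal value over these 68 summits was 292, against 325 over all 1471. The 3 that were not hosts were Eip93F, Blimp-1 and Met, of which Met has 69 bp of eligible intron.

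Among them, Eip75B, a heme-binding nuclear receptor gene, had the highest single summit. This was 2906 pooled, 1363 in replicate 1 and 1559 in replicate 2, and it lay 12100 bp from the nearest TSS (3L, 18011673 to 18012100). Its other 10 summits had pooled values of 223 to 629, so that 1 summit stood far above the rest. The summit with CACAGTG shown above, at 629 pooled, 343 in replicate 1 and 325 in replicate 2, was the next highest and lay 9333 bp from a TSS.

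Eip74EF had 15 summits along a gene of 60654 bp. Their pooled values ran from 208 to 601 with a median of 258. In replicate 1 they ran from 64.6 to 280 (median 144), in replicate 2 from 58.8 to 313 (median 154), and 9 were among the highest 6153 peaks of both. A summit at 208 pooled had no overlapping peak in replicate 2. The peaks on 3L from 17613914 and from 17614124 overlap and share replicate values of 114 and 156.

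EcR, which encodes the ecdysone receptor itself, had 10 summits with pooled values of 260 to 989 (median 430), and 9 were in the top lists of both replicates. The highest, on 2R (6145511 to 6145688), had 883 in replicate 1 and 300 in replicate 2. An overlapping peak (6145607 to 6145813, 332 pooled) shares these replicate values. Hr4, a nuclear receptor gene, had 8 summits with values of 220 to 1075 (median 503), all 8 in both top lists and 7 in a first intron. Some of these peaks overlap and share replicate values, 654 and 383 at those from 1947582, and 293 and 206 at those from 1948462 and 1948663. They are not separate peaks in the replicates. The other hosts were Eip78C (1884 at its highest), Kr-h1 (1368), tai (794), br (541), ftz-f1 (518), Hr3 (476), Hr38 (435), gce (264) and Hr39 (253). Of the 16 genes, 8 had a promoter peak, and Hr4, Eip78C, br, Hr38 and Hr39 hosted intronic summits without one. Over all eligible genes, 61.6% of hosts and 36.1% of the others had a promoter peak.

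**Figure D3:**
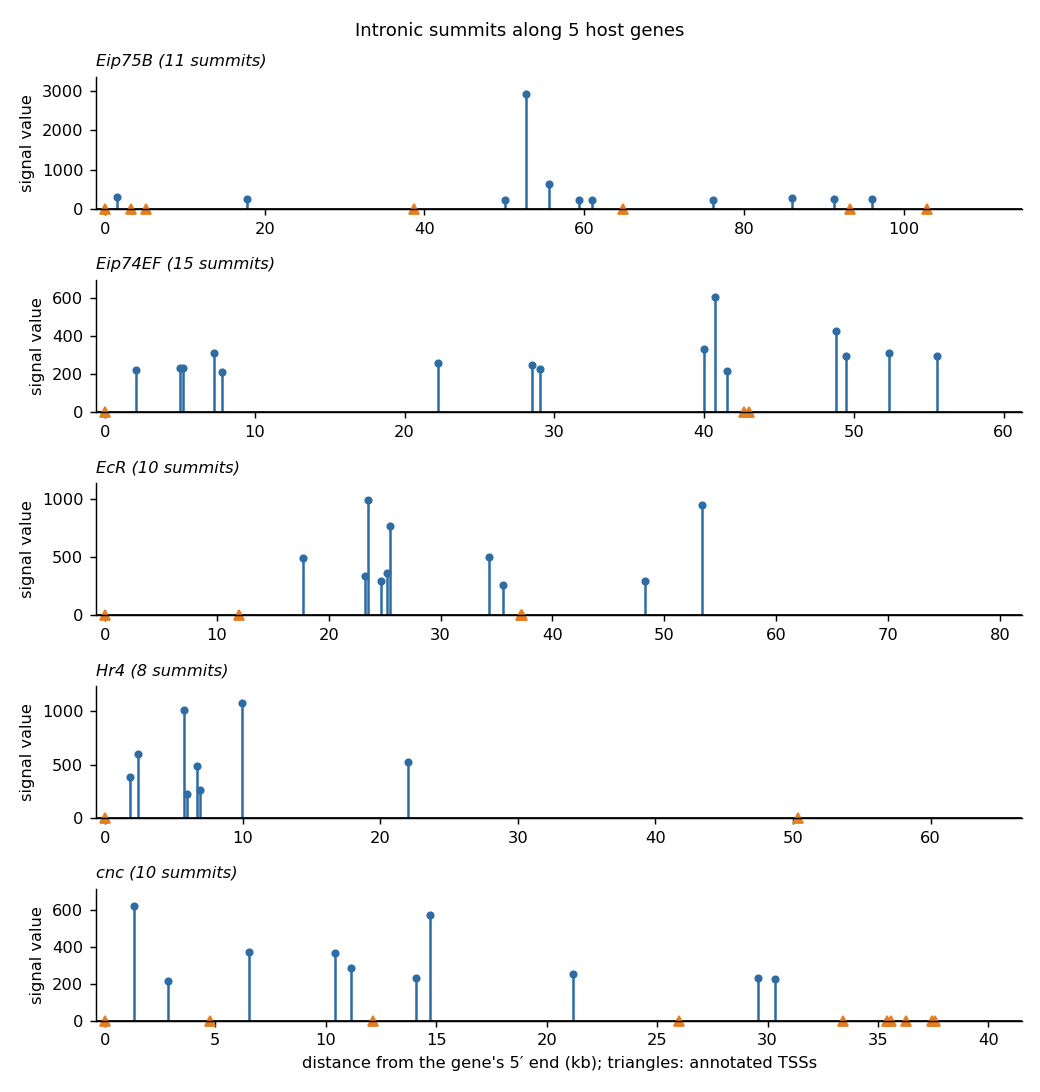
Pooled signal value of each intronic summit against its distance from the 5′ end of the gene, in kb, for 5 hosts, with triangles at annotated TSSs. Eip75B has 1 summit at 2906 above 10 lower ones, while the 15 of Eip74EF lie between 208 and 601.

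The bZIP factors and partners of Cnc came second. Of 12 eligible genes 8 were hosts (66.7%), in each replicate too, against 10.9% of all eligible genes. All 7 with over 10000 bp of eligible intron were hosts, against 37.9% of all such genes. The list held 31 summits, or 211 per Mb against 31.1 over all eligible intron. The median signal value over all 31 was 310, against 325 over all 1471. The repressor gene vri, which acts in the circadian clock, had 6 summits, led by 1427 (770 in replicate 1, 754 in replicate 2) and 1408 (658 and 755), all in a first intron. The next highest were cnc (620), kay, the Fos gene (598), and REPTOR (591), followed by CrebB, CrebA, Atf3 and Pdp1 between 257 and 428. Keap1, Atf6, Atf-2 and crc had none, and Keap1 has 521 bp of eligible intron.

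The cnc gene held 10 intronic summits in 19175 bp of eligible intron, from 216 to 620 pooled with a median of 267. The highest lay 1297 bp from a TSS, with 351 in replicate 1 and 362 in replicate 2. Of the 10, 5 were in both top lists. The summit at Irk1 with 3456 pooled lies 9988 bp outside cnc. The larvae carry a tagged cnc, the labels do not say how much of the locus the insertion holds, and its part in these values was not tested.

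Signalling lists followed. Of the Wnt and Hippo genes 10 of 19 were hosts (11 in replicate 1, 9 in replicate 2), led by the Wnt receptor gene fz (1397), the coreceptor gene arr (1057), nkd (776) and fz2 (764). Of the BMP and activin genes 6 of 12 were hosts, with 171 summits per Mb against 31.1 over all eligible intron. They were led by the receptor gene wit (1299), the zinc finger gene shn (1188), the receptor gene tkv (828) and the inhibitory Smad gene Dad (699). Of the EGFR and receptor tyrosine kinase genes 8 of 18 were hosts (7 in each replicate), led by the Ets repressor gene aop (743), Egfr (701), pnt (398) and aos (339). Notch pathway genes were hosts in 4 of 12 cases, with neur (1230), N (1042), mam (879) and Ser (232). The 5 hosts among 11 clock genes were vri, dco, cwo, sgg and Pdp1, while per, tim, Clk, cyc, cry and jet had none.

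Polycomb and trithorax genes were hosts in 6 of 22 cases, against 10.9% of all eligible genes. These were Trl (2243), trx (1202), Psc (1148), ph-p (889), psq (385) and osa (287). With over 10000 bp of eligible intron, 2 of 2 were hosts, against 37.9% of all such genes. In the insulin and TOR list 4 of 16 were hosts (5 in each replicate), namely sima (798), InR (647), foxo (628) and Pdk1 (309). With over 10000 bp, 3 of 4 were hosts. A promoter peak was present at 14 of the 16, against 61.6% of all hosts and 36.1% of other eligible genes.

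Genes of the response that Cnc is best known for had at most 1 summit each. Of 12 eligible antioxidant and NADPH enzyme genes 4 were hosts (33.3%, with 5 in replicate 1 and 3 in replicate 2), against 10.9% of all eligible genes. These 4 had 1 summit each. The list's density was 103 summits per Mb of eligible intron, against 31.1 in all and 63.3 in genes with 1001 to 5000 bp. They were Sesn (395), Men-b (247), Gclc, a subunit gene of the enzyme that limits glutathione synthesis (242), and Pgd (237). The median of the 4 was 245, against 321 over the 398 hosts with a single summit. Of the 12 genes 6 had a promoter peak, against 61.6% of all hosts and 36.1% of other eligible genes. Among 13 autophagy genes Atg1 (520), Atg5 (335) and Atg17 (303) were hosts (23.1%, against 10.9% of all eligible genes). Among 9 fat body genes mdy (439), Lpin (375) and FASN1 (243) were hosts (33.3%, with 4 of 9 in either replicate). A promoter peak was present at 11 of the 13 autophagy and all 9 fat body genes, against 61.6% of all hosts and 36.1% of other eligible genes.

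Genes of differentiated muscle and nerve had the lowest shares of hosts in the reproducible list. Of 19 eligible muscle sarcomere genes 1 was a host, Zasp52, with 2 summits at up to 254, and the density was 10.9 per Mb. Of 18 neuron and glia genes 1 was a host, Gli (209), at 2.46 per Mb over 406 kb of eligible intron. None of the 9 neuron and glia genes with over 10000 bp hosted a summit, against 37.9% of all such genes. With over 10000 bp, 1 of 7 muscle genes was a host. Either replicate alone gave 2 hosts among the 19 muscle genes, near the 10.9% of all eligible genes. Among the 18 neuron and glia genes replicate 1 gave 1 host and replicate 2 gave 2, the latter also near 10.9%. Adhesion and septate junction genes were hosts in 4 of 18 cases (6 in replicate 1, 2 in replicate 2), namely crb (500), sdt (326), arm (257) and baz (222). Their density was 18.3 per Mb, and 3 of the 8 with over 10000 bp were hosts, near the 37.9% of all such genes. Of the 8 homeotic genes Antp (5 summits, up to 756) and Ubx (2, up to 314) were hosts. None of the 8 had a promoter peak, against 61.6% of all hosts and 36.1% of other eligible genes. Here the density was 26.9 per Mb, and 2 of the 7 with over 10000 bp were hosts. In both lists the density was thus below the 31.1 per Mb of all eligible intron, which is not matched for length. Genes with more than 50000 bp of eligible intron, as Antp and Ubx have, held 16.3 per Mb. Some genes stand in more than 1 list, vri and Pdp1 among them.

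**Figure D4:**
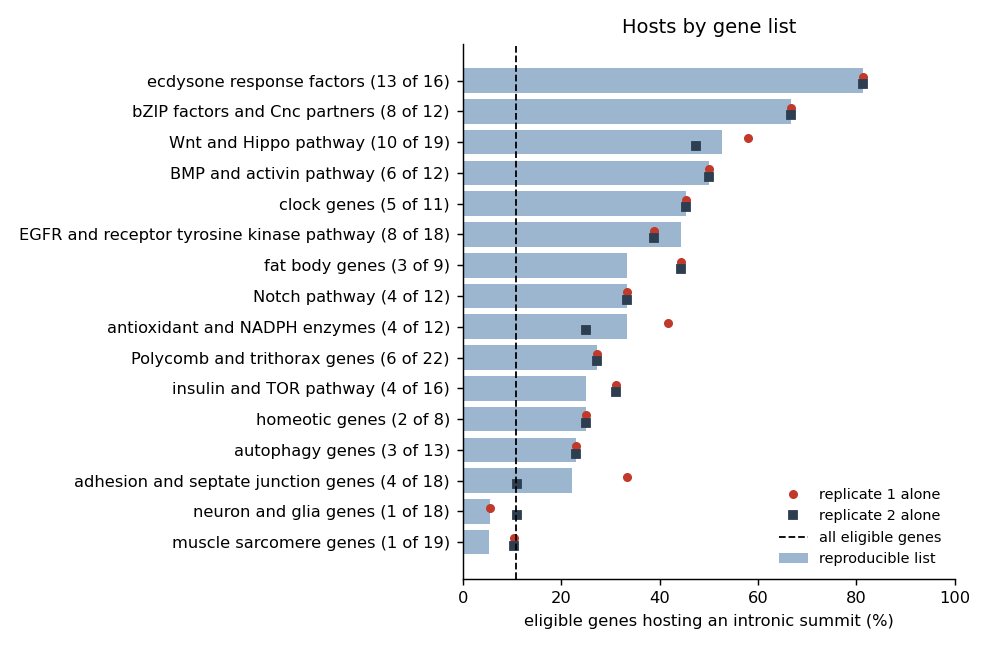
Percentage of eligible genes hosting an intronic summit in each of 16 gene lists. Bars are the reproducible list, circles replicate 1 and squares replicate 2. The dashed line marks the 10.9% of all eligible genes. Above it lie 14 bars, and below it those of muscle and of neuron and glia genes. Either replicate gave 2 of 19 muscle genes, and replicate 2 gave 2 of 18 neuron and glia genes, near the line. The homeotic and the adhesion lists lie above the line at 26.9 and 18.3 summits per Mb, below the 31.1 of all eligible intron. Genes with more than 50000 bp of eligible intron held 16.3 per Mb.

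Intronic summits sat in a narrow dip of GC content. Their 101-bp windows had a median of 33.7% (interquartile range 28.7 to 40.6), against 40.6% in windows 1000 bp to either side and 40.6% in all windows of the same length tiling eligible intron. The medians were 34.7% in replicate 1 and 33.7% in replicate 2. Promoter summits had the same median, 33.7%, against 44.6% in their flanks, and intergenic summits 32.7% against 41.6%. Around intronic summits the mean over 51-bp windows was 33.7% at the summit, 44.5% at 250 bp upstream and 43.8% at 250 bp downstream in genome orientation, and 41.0% and 41.2% at 1000 bp. The dip was thus flanked by shoulders above the level farther out, which intergenic summits shared and promoter summits did not show. Soft-masked repeats covered most of the window in 10.5% of summit windows and 14.2% of tiles.

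The Cnc-Maf motif had similar shares at the summits and around them. It was in 42 of 1471 windows (2.86%, 2.07 to 3.84), against 3.06% of flanking windows and 2.93% of tiles. In replicate 1 alone the share was 3.39%. In promoter windows it was 2.64%, and in intergenic windows 3.17%. The motif is richer in G and C than these windows, so it was also counted within strata of GC content. Where GC was 42% or more it was in 6.00% (3.59 to 9.32) of summit windows and 4.36% of tiles, and from 36% to below 42% in 4.17% (2.10 to 7.33) and 2.66%. From 30% to below 36% it was in 6 of 400 summit windows (0.552% to 3.24%) and 1.73% of tiles, and below 30% in 1.38% (0.557 to 2.82) and 0.817%. All 4 intervals include the tile values.

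The highest carriers were Pits (signal value 896, 544 in replicate 1, 372 in replicate 2), fl(2)d (863, 405 and 452) and Evi5 (651, 424 and 215). The strict form TGACTCAGC, which contains the AP-1 motif TGACTCA, was in 1 window, that of MESR3 (pooled value 217), and in 0.0427% of tiles. AP-1 was in 1.29% (0.779 to 2.01) of summit windows, 1.05% of flanks and 0.887% of tiles, with osp (3139), Pp2C1 (1375) and shn (1188) the highest carriers. At 42% GC or more AP-1 was in 2.67% (1.16 to 5.19) of summit windows and 0.985% of tiles, an interval above the tiles. From 36% to below 42% it was in 1.89% (0.618 to 4.36) and 0.957%, from 30% to below 36% in 4 of 400 windows (0.273 to 2.54) and 0.848%, and below 30% in 0.394% (0.0478 to 1.42) and 0.549%, with the tile values inside these 3 intervals. CRE (TGACGTCA) was in 1 window, in Tlk (329), and in 0.153% of tiles. The PAR bZIP motif (TTACGTAA) was in 1 window, in CG43658 (387), and in 0.115% of tiles.

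GTAAACA was in 81 intronic windows (5.51%, 4.40 to 6.80), against 2.11% of flanks (1.62 to 2.69) and 2.08% of tiles. It was in 5.01% of the windows of replicate 1 and 5.54% of those of replicate 2. Promoter windows had 4.07% (3.48 to 4.73) and intergenic ones 1.78% (0.818 to 3.36). By GC content the shares were 2.96% against 2.46% of tiles below 30%, 6.50% against 2.57% from 30% to below 36%, 7.20% against 2.42% from 36% to below 42%, and 7.00% against 1.54% at 42% or more. In the upper 3 strata the interval of the summits lay above the tiles, and in the lowest it did not. In 51-bp windows the share was 2.86% at the summit and 1.02% at 1000 bp upstream in genome orientation.

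**Figure D5:**
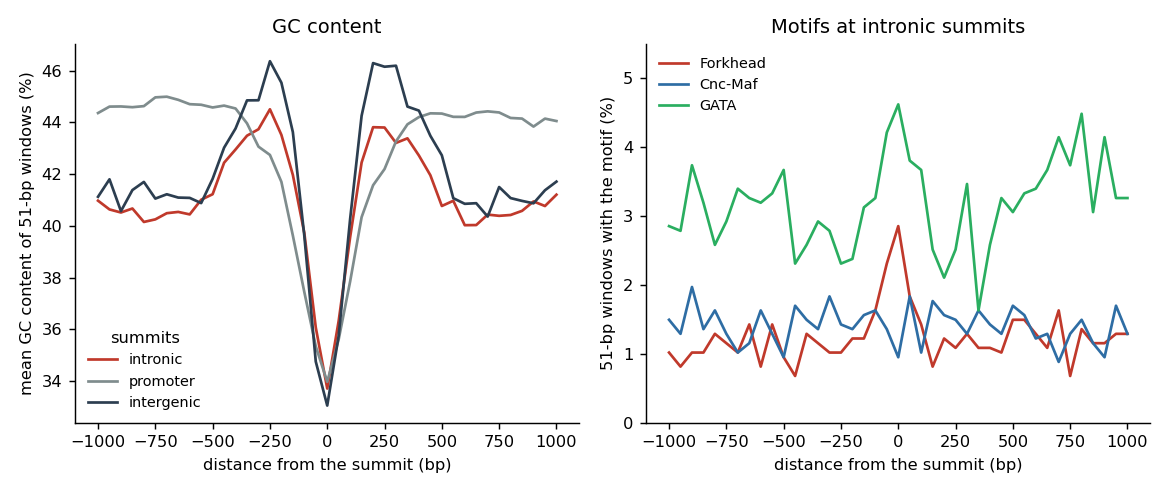
Left, mean GC content of 51-bp windows against distance from the summit for intronic (red), promoter (grey) and intergenic (dark blue) summits, with a dip to 33.7% at intronic summits. Right, percentage of 51-bp windows holding 3 motifs around intronic summits, where Forkhead reaches 2.86% at the summit and Cnc-Maf shows no peak there.

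AGATAA, the GATA motif, was in 8.70% (7.31 to 10.3) of intronic windows, 6.15% of flanks and 6.07% of tiles, but below 30% GC in 10.3% of summit windows and 10.5% of tiles, and in each of the 4 GC strata the interval of the summits included the tiles. GAGAG was in 12.9% (11.2 to 14.7), 13.0% of flanks and 11.3% of tiles. At 42% GC or more it was in 23.7% (19.0 to 28.9) of summit windows and 14.9% of tiles, and from 36% to below 42% in 16.3% (12.05 to 21.31) and 11.4%. In the lower 2 strata it was in 11.3% against 8.43% of tiles and in 6.11% against 4.83%, with the tiles inside both intervals. The E-box CACGTG was in 0.408% (0.150 to 0.886), against 1.02% of flanks and 1.11% of tiles, and in 0.917% in replicate 1 alone. In each GC stratum the interval included the tiles. TATCGATA, the DNA replication element (DRE), was in 0.204% (0.0421 to 0.595) of intronic and 4.02% (3.44 to 4.67) of promoter windows. GGTCACACT, bound by M1BP, was in 0.0680% of intronic and 1.16% of promoter windows. CGATA, bound by BEAF and contained in the DRE, was in 11.9% of intronic and 21.9% of promoter windows. In tiles the shares were 0.216% for the DRE, 0.0484% for M1BP and 10.5% for BEAF. The highest carriers were CG12769 (2223), mnb (1978) and Tis11 (1412) for GATA, and CG32486, Irk1 and Eip75B for GAGAG. They were ftz-f1 (518), mbc (457) and Tpr2 (427) for the E-box, Dmtn (403), Atg17 (303) and Ncoa6 (247) for the DRE, and ush, osp and upSET for BEAF.

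Of 1085 words of 7 bases found in at least 30 intronic windows, 108 were more than 2 times as frequent as in flanks. These words were ranked on the same windows, so their ratios are a description. CAGTGTA led, in 51 windows (3.47%) against 0.748% of flanks and 0.962% of tiles. It was in 3.18% of windows in replicate 1 and 2.63% in replicate 2, in 6.93% of intergenic windows and 1.60% of promoter windows. AGTGTAC overlaps it (2.04% against 0.442% of flanks), and CACTGAG (2.31% against 0.714%) and CACAGTG (3.47% against 1.09%) share its CACTG or CAGTG core. At least 1 of these 4 words was in 133 intronic windows (9.04%), against 2.75% of flanks, 3.27% of tiles, 5.48% of promoter windows and 12.3% of intergenic windows. Among the highest carriers of CAGTGTA, Tlk had a signal value of 2698 (1714 in replicate 1, 1132 in replicate 2), lili 1233 (813 and 456) and the second summit in Irk1 1085 (625 and 474). GTAAACA was the 16th word by this ratio.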

How the data were processed

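The authors deposited peak lists in narrowPeak layout on dm6. Per the deposited file lists, each replicate's list was called against a control, the pooled list on both replicates together, and the reproducible list drew on both of these lists and another one. Each peak has a deposited signal value (signal over a control, scale not stated) and the authors' −log10 q-value, which was not used to choose peaks. No label or header used here names the aligner, caller, thresholds or read numbers, so the depth is unknown.

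Summits were classified with Ensembl release 115 gene models, and sequence was read from RefSeq's copy of that assembly. Coordinates are 1-based. Python 3.11.15, numpy 2.4.6, pandas 2.3.3, scipy 1.17.1 and matplotlib 3.10.9 were used, and functions were checked on simulated data. At each summit, a replicate's value is that of its highest peak sharing at least 1 bp. "Replicate alone" means that replicate's highest 6153 peaks. Motifs were counted on both strands in 101-bp windows, 21 motifs in all. Exact binomial (Clopper-Pearson) 95% intervals cover counting error over peaks only. Peaks and genes are not independent replicates, and no test was run because there is 1 group of 2 replicates.

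Members, motifs and the 17 gene lists were chosen with earlier results of these data known. In these lists, 3 names matched no gene, and 1 list is not reported here. Named were the 25 highest members, the 10 hosts with the most summits (ties by summed signal), up to 4 hosts per list by highest summit, up to 3 carriers per motif discussed, 3 members on each side of the distance limit, and cnc. Further list members and the leading words were named after their values were seen.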

Additional observations from a re-analysis of the deposited data

How the results depend on the processing

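No paired analysis was possible because the 2 replicates form 1 group. Alternatives moved the distance limit, the peak set, the gene models, the overlap rule or the window. With a TSS distance over 500 bp the intronic share of summits was 30.5% and the first intron share 70.8%; over 2000 bp they were 16.7% and 62.5%, with 12.5% of eligible genes as hosts. In the upper part of the list by signal value there were 654 intronic summits (21.3% of that part) in 446 genes (6.51% of eligible genes), 97.9% were in both replicate lists and the median GC was 32.7%. Overlap in both replicates was 65.3% when at least 50% of the shorter peak had to be shared and 98.1% with whole lists. Windows of 100 bp either side gave a median GC of 35.3% and the Cnc-Maf motif in 5.98%. No flank or tile share is given for this longer window, so 5.98% cannot be set beside the shares of 101-bp windows. Leaving out either replicate gave 1417 to 1481 intronic summits, 735 to 763 hosts and a median GC of 33.7% to 34.7%. Protein-coding TSSs only, merged peaks and RefSeq gene models left each of the 6 values tried within its limits (1.5 times for counts, the exact interval for shares, the replicate SD for medians). Of 124 values for single motifs and flanks under alternatives, 101 stayed within their limits, 16 were higher and 7 lower. Most of the higher values came from the windows of 100 bp either side, where GAGAG for example rose from 12.9% to 25.3%. Such windows are longer and have more room for a match. The cause of the other moves was not tested. Depth is unknown, so an absent peak does not show absent binding, and without a control sample tag or antibody background cannot be measured here.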
